A study of Homo sapiens with 9 samples.

Results

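The genes described here are 40 symbols whose products carry a cell through mitosis. They cover the kinases and cyclins of mitotic entry, the spindle checkpoint, the kinetochore, the spindle, anaphase and cytokinesis. They were taken by symbol, and the list was chosen with earlier results of these data known. Members made up 39 of the 19969 symbols counted, since KIF23 had no row under its current or an older symbol. NUSAP1, a microtubule-binding protein of the spindle, had 0 to 2 counts per library and did not pass the filter on low counts, so 38 members were tested.

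RNA depleted of ribosomal RNA was sequenced from HEK293T cells, a transformed human embryonic kidney line that carries the SV40 large T antigen. There were 9 libraries in 4 groups. The FHY1-M3 construct was paired with an ACTB sgRNA, a con sgRNA or a non-target sgRNA, with 2 libraries each, and 3 further libraries were labelled input. All 9 share the cell line and the TRIzol extraction. The series concerns light-controlled editing of N6-methyladenosine, a methylated base of mRNA. The labels give no light condition, no time and no description of the construct, and they give the inputs neither a construct nor a guide. The con libraries are called con_sgRNA in their titles but con_ACTB_sgRNA in the count table, and it is unclear whether they held the ACTB guide as well. The labels do not tie replicates to separate cultures. The p-values then reflect only how much these libraries varied, which may be technical.

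The mRNAs of mitotic genes are made in waves. The DREAM complex represses them in resting and early cycling cells, and MYBL2 with the MuvB core, followed by FOXM1, activates them towards mitosis. Many of their promoters carry a CHR element, which MuvB binds through LIN54, and CCAAT boxes, which NF-Y binds. Their proteins are then destroyed in order by the anaphase-promoting complex, a ubiquitin ligase. Bulk libraries of a cycling culture hold cells of every phase, so fewer cells in mitosis and less RNA per cell cannot be told apart.

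The sgRNA libraries held between 2900021 and 3802681 counts and the inputs between 350413 and 643954, which makes the input values less precise. Mitochondrial mRNAs took 0.563% to 0.639% of the counts in the sgRNA libraries and 7.52% to 7.80% in the inputs, and with these and the replication-dependent histone genes removed before scaling 5 members were higher and 6 lower than input. All 8 markers fixed for HEK293T had a row in the table. They summed to 1201 to 1353 CPM with sgRNA and to 1154 to 1385 CPM in the inputs. CPM are counts relative to each library's scaled total. VIM had the most counts of the 8 in every library, 2144 to 2990 with sgRNA and 240 to 476 in the inputs. PAX2 and INA were low in the inputs, at 2, 12 and 4 and at 0, 12 and 2 counts. The 11 markers of other cell types summed to 29.2 to 62.9 CPM with sgRNA and to 15.7 to 75.2 CPM in the inputs. Of the blood markers, PTPRC and CD3E were at 0 in all 9 libraries. CD68 had 10 to 38 counts with sgRNA and 0, 9 and 0 in the inputs. CD34 had 0 to 6 counts with sgRNA and 0 in the inputs. COL1A1, a fibroblast marker, had 58 to 182 counts with sgRNA, the most of the 11 there, and 22, 8 and 4 in the inputs. The protocol names input, supernatant and immunoprecipitated RNA, and the labels do not say which of these the 6 sgRNA libraries hold. A value above or below input is therefore a difference between libraries and may not be a difference in the RNA level of the cells. Construct, kind of RNA and depth cannot be told apart between these groups.

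As a group the mitosis genes took 0.532% ± 0.0179 of the counts in the 6 FHY1-M3 libraries (SD, n = 6, 0.505% to 0.558%) and 0.493% ± 0.0173 in the inputs (SD, n = 3, 0.474% to 0.508%). With mitochondrial mRNAs taken out of the totals the shares were 0.535% ± 0.0179 (SD, n = 6) and 0.533% ± 0.0184 (SD, n = 3), a difference smaller than the spread. Single members differed in both directions. UBE2S, ESPL1, CCNA2, BUB1, TPX2 and CENPF were higher in the FHY1-M3 libraries, by 1.33 to 1.91 times. TTK, UBE2C, PTTG1, MAD2L1, CDK1 and ASPM were lower, at 0.299 to 0.6252 of the input level. Groups were compared with the edgeR quasi-likelihood test, two-sided, with Benjamini-Hochberg adjustment over all 13411 genes tested and a threshold of 0.05. Every adjusted p below comes from this test unless DESeq2 is named.

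Of the 38 members tested 6 were higher (15.8%, against 11.4% of all genes tested) and 6 were lower (15.8%, against 8.6%). In either direction 12 members passed (31.6%, against 20% of all genes). Without adjustment 18 of 38 had a p under 0.05 (47.4%, against 31.9%). Libraries of the 2 groups did not overlap for 8 members that were higher (21.1%, against 14.9%) and for 6 that were lower (15.8%, against 8.51%). The log2 difference was above 0 for 14 members (36.8%, against 51.9%), and its median was -0.11 for the members and 0.04 for all genes. Under median-ratio scaling these medians were -0.18 and -0.04, and on library totals alone -0.05 and 0.09. DESeq2, which scales by median ratios, called 4 members higher and 8 lower, and 1385 genes higher and 1568 lower where edgeR called 1524 and 1153. Leaving out input replicate 1 took the count of higher members to 3, and leaving out con sgRNA replicate 2 took the count of lower members to 3. With the FHY1-M3 libraries thinned to the mean input total, 1 member was still higher.

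**Figure D1:**
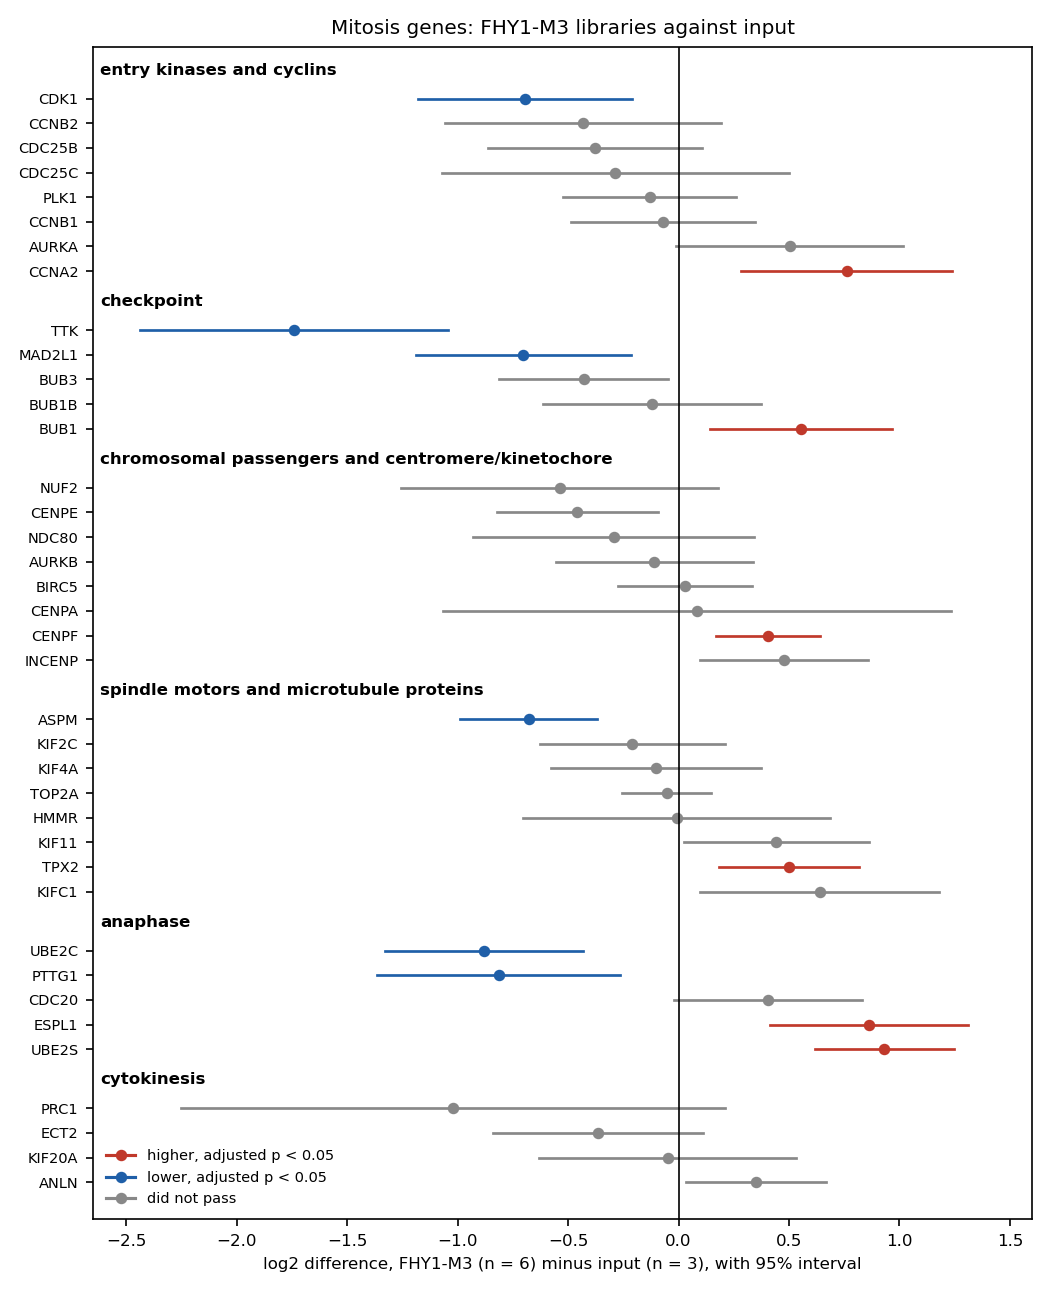
Log2 difference between the FHY1-M3 libraries (n = 6) and the inputs (n = 3) for each of the 38 members tested, by role, with its 95% interval. Red marks the 6 members that were higher, blue the 6 that were lower and grey the 26 that did not pass, with TTK farthest below 0 at -1.74 and UBE2S highest at 0.93.

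The anaphase genes held the most calls, 2 higher and 2 lower of 5 tested. Over all genes tested 11.4% were higher and 8.6% lower, the shares to set beside this and the role counts below. Each role holds few genes, and differences between roles were not tested. UBE2S and UBE2C encode the ubiquitin-conjugating enzymes of the anaphase-promoting complex, the latter starting the chains and the former extending them. UBE2S (chromosome 19, 55399745 to 55407788, GRCh38.p14 here and below) stood at 371 and 424 CPM for the ACTB guide, 305 and 290 for the con guide and 300 and 246 for the non-target guide. Its 3 inputs were at 150, 143 and 212 CPM, below every sgRNA library. The means were 323 ± 63.8 CPM (SD, n = 6) and 168 ± 37.7 CPM (SD, n = 3), a log2 difference of 0.93 (SE 0.16, adjusted p = 2.61e-05). The UBE2S locus overlaps RPL28, a ribosomal protein gene, and how reads on overlapping genes were assigned is not given. RPL28 itself differed from input by -0.07 (SE 0.11, adjusted p = 0.708), and its part in the UBE2S value was not tested.

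UBE2C (chromosome 20, 45812644 to 45816952) went the other way. It was at 79.3, 67.7, 71.8, 64.0, 92.7 and 71.1 CPM in the sgRNA libraries and at 133, 120 and 159 CPM in the inputs, with no overlap. The means were 74.4 ± 10.3 (SD, n = 6) and 138 ± 19.98 CPM (SD, n = 3), with a log2 difference of -0.88 (SE 0.22, adjusted p = 0.00369). The paired enzymes of the same ligase were thus on opposite sides of their input levels.

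Separase and its inhibitor were also split. ESPL1, separase, is the protease that cuts cohesin at anaphase (chromosome 12, 53268299 to 53293638). It read 146 and 200 CPM for the ACTB guide, 159 and 157 for the con guide, 190 and 186 for the non-target guide, and 52.0, 86.1 and 146 CPM in the inputs. Input replicate 3 came close to the lowest sgRNA library, and the other inputs were well below it. On the log2 scale the difference was 0.86 (SE 0.22, adjusted p = 0.00476) from means of 173 ± 21.6 (SD, n = 6) and 94.9 ± 47.8 CPM (SD, n = 3). With the FHY1-M3 libraries thinned, the adjusted p of ESPL1 was 0.0674.

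PTTG1, securin, holds separase inactive until the anaphase-promoting complex removes it (chromosome 5, 160421855 to 160428744). It ranged from 41.9 to 78.1 CPM in the sgRNA libraries and was 80.9, 120 and 83.6 CPM in the inputs. The groups did not overlap, though ACTB sgRNA replicate 2 at 78.1 CPM lay just under the lowest input. The log2 difference was -0.81 (SE 0.27, adjusted p = 0.0295). PTTG1 lost its call without ACTB replicate 1, con replicate 1, con replicate 2, input replicate 2 or non-target replicate 1 (adjusted p = 0.0969, 0.0766, 0.0542, 0.224 and 0.0705). Its copy PTTG2 had 0 counts in every library. CDC20, the activator of the ligase that the checkpoint inhibits, had a log2 difference of 0.40 and did not pass.

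Among the 5 checkpoint genes 1 was higher and 2 were lower. The checkpoint delays anaphase until every chromosome is attached. TTK, also called MPS1, is the kinase at the top of this pathway (chromosome 6, 80004649 to 80042527). Its level was 21.0 and 25.4 CPM for the ACTB guide, 33.3 and 18.9 for the con guide, 22.0 and 15.7 for the non-target guide, and 60.7, 76.4 and 88.9 CPM in the inputs. Every input was above every sgRNA library. With means of 22.7 ± 6.10 (SD, n = 6) and 75.3 ± 14.1 CPM (SD, n = 3), the log2 difference was -1.74 (SE 0.34, adjusted p = 0.000298), or 0.299 times the input level (95% interval 0.184 to 0.486).

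MAD2L1, the MAD2 protein that binds CDC20 (chromosome 4, 120055623 to 120066848), was at 57.2 to 110 CPM in the sgRNA libraries and at 156, 111 and 110 CPM in the inputs. The groups only just failed to touch, at non-target sgRNA replicate 1 and input replicate 3. On the log2 scale the difference was -0.70 (SE 0.24, adjusted p = 0.0343). MAD2L1 lost its call without ACTB replicate 1, con replicate 1, con replicate 2, input replicate 1 or non-target replicate 2 (adjusted p = 0.101, 0.0772, 0.0534, 0.165 and 0.0993). BUB1, the kinase that recruits checkpoint proteins to kinetochores (chromosome 2, 110637528 to 110678063), was at 125 to 159 CPM with sgRNA and at 83.8, 114 and 94.1 CPM in the inputs, with no overlap. Its log2 difference of 0.55 (SE 0.20) had an adjusted p of 0.04995, at the threshold itself. BUB1 lost its call in 15 of 18 alternatives, among them the removal of any library other than input replicate 2 (adjusted p = 0.0544 to 0.133).

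BUB3, the partner that holds BUB1 and BUB1B at kinetochores, did not pass at -0.43 (adjusted p = 0.106), although its 6 sgRNA libraries (111 to 139 CPM) lay below the 3 inputs (140 to 227 CPM). By DESeq2 the adjusted p of BUB3 was 0.0368, and by edgeR at a mean of at least 10 CPM it was 0.0491. BUB1B, which encodes BUBR1, a subunit of the complex that blocks CDC20, had a log2 difference of -0.12. The BUB1B-PAK6 readthrough gene at the same locus had 0 counts.

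**Figure D2:**
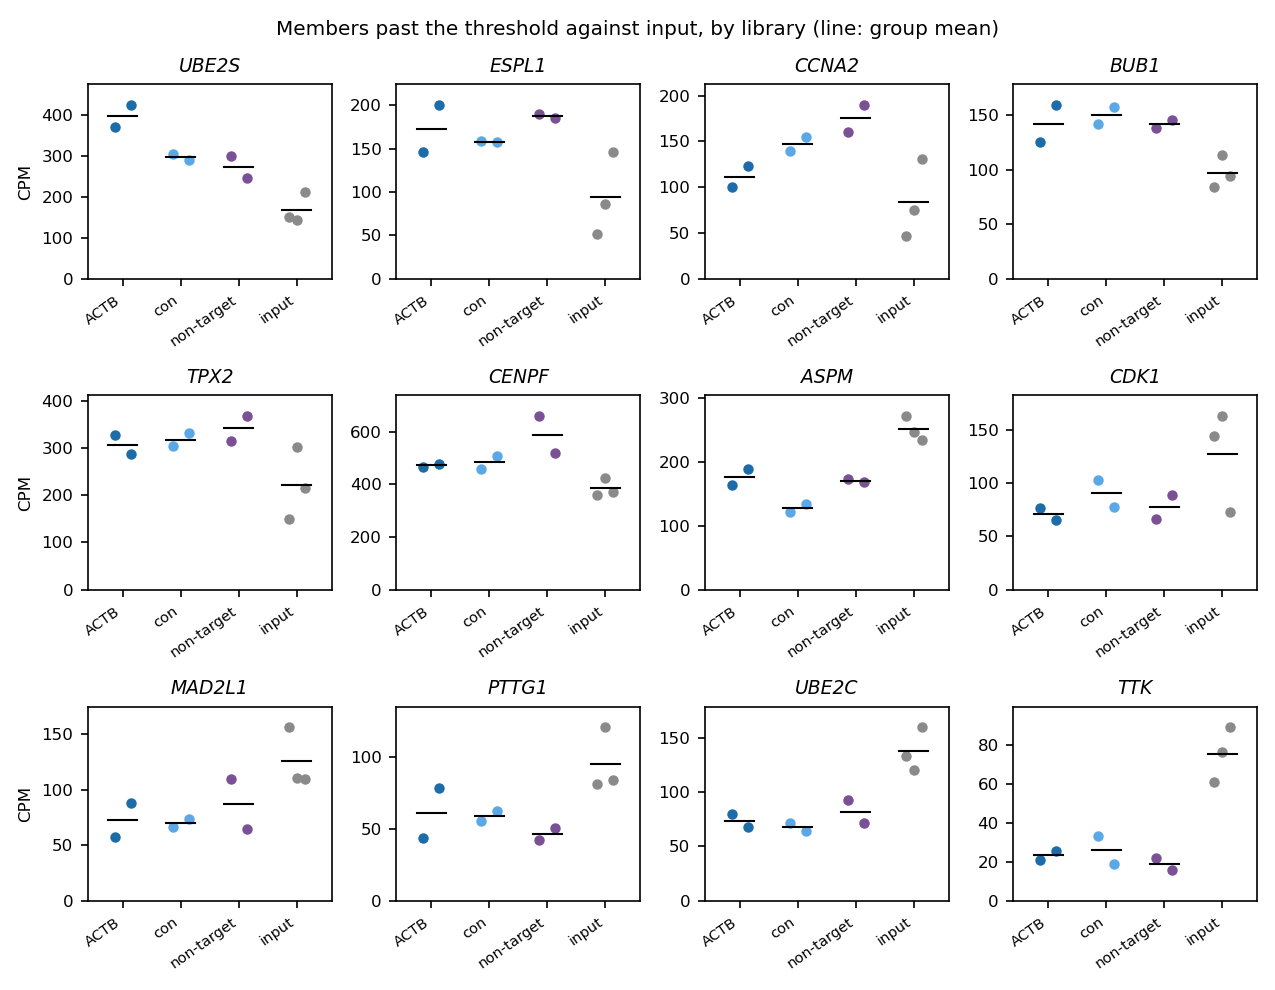
CPM of the 12 members past the threshold in each library, with the 4 groups on the x axis, points for libraries and a line for each group mean. The inputs of TTK lie between 60.7 and 88.9 CPM and its sgRNA libraries between 15.7 and 33.3 CPM, while CCNA2, TPX2 and CDK1 show overlap between the groups.

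Of the 8 kinases, phosphatases and cyclins of mitotic entry 1 was higher and 1 was lower. CCNA2, cyclin A2, works with CDK2 in S phase and with CDK1 up to early mitosis (chromosome 4, 121816444 to 121823883). It was at 100 and 123 CPM for the ACTB guide, 140 and 155 for the con guide and 161 and 189 for the non-target guide. The inputs were spread from 46.3 over 74.8 to 131 CPM, so the highest input overlapped the ACTB libraries. The log2 difference was 0.76 (SE 0.24, adjusted p = 0.0189). For CCNA2 the adjusted p was 0.113 without input replicate 1, 0.0974 without input replicate 2 and 0.0889 with the FHY1-M3 libraries thinned. EXOSC9, an exosome gene that overlaps CCNA2, had a log2 difference of 0.66 (SE 0.30, adjusted p = 0.119), and its part in the CCNA2 value was not tested.

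CDK1, the kinase whose activity defines mitosis (chromosome 10, 60778331 to 60794852), was at 65.4 to 103 CPM with sgRNA and at 145, 163 and 73.2 CPM in the inputs. Its input replicate 3 lay inside the sgRNA range. On the log2 scale the difference was -0.69 (SE 0.24, adjusted p = 0.0347). CDK1 lost its call without ACTB replicate 2, con replicate 2, input replicate 1, input replicate 2 or non-target replicate 1 (adjusted p = 0.0808, 0.0967, 0.0925, 0.298 and 0.0972). On library totals alone the adjusted p of CDK1 was 0.0516. The B-type cyclins that activate it, CCNB1 and CCNB2, had log2 differences of -0.07 and -0.43 and did not pass.

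The other 4 entry genes did not pass either. CDC25B and CDC25C, phosphatases that switch CDK1 on, had log2 differences of -0.38 and -0.29. FAM53C, which overlaps CDC25C, was higher by 1.16 (SE 0.17, adjusted p = 2.16e-06), and its part in the CDC25C value was not tested. AURKA, the centrosomal Aurora kinase, had a log2 difference of 0.50, and PLK1, the polo-like kinase of spindle assembly and mitotic exit, one of -0.13.

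Among the 8 passenger and kinetochore genes CENPF alone passed. CENPF is a large kinetochore-associated protein that binds microtubules (chromosome 1, 214603195 to 214664571). It was at 468 and 477 CPM for the ACTB guide, 460 and 507 for the con guide, 659 and 518 for the non-target guide, and 358, 424 and 371 CPM in the inputs. All 6 sgRNA libraries were above the inputs, with non-target sgRNA replicate 1 apart from the rest. The log2 difference was 0.41 (SE 0.12, adjusted p = 0.0108), from 515 ± 74.0 (SD, n = 6) against 385 ± 34.9 CPM (SD, n = 3). Without non-target replicate 1 the adjusted p of CENPF was 0.0508, and with the FHY1-M3 libraries thinned it was 0.0736.

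CENPE, a kinesin that moves chromosomes to the spindle equator, had a log2 difference of -0.46 (adjusted p = 0.0665). The adjusted p of CENPE by DESeq2 was 0.0189, and by edgeR without input replicate 3 it was 0.0275. By edgeR it was 0.0293 under median-ratio scaling and 0.0281 at a mean of at least 10 CPM. The chromosomal passenger complex corrects faulty attachments. Its kinase AURKB, its survivin subunit BIRC5 and its scaffold INCENP had log2 differences of -0.11, 0.03 and 0.48. INCENP passed without input replicate 2 (adjusted p = 0.0131) or without non-target replicate 1 (0.0417). It also passed on library totals alone (adjusted p = 0.0363) and without the filter on low counts (0.0347). NDC80 and NUF2, which form the arm of the kinetochore that grips microtubules, were at -0.29 and -0.54. CENPA, the histone H3 variant that marks centromeres, was at 0.08 and varied more than any other member, from 6.45 to 29.1 CPM with sgRNA and from 5.23 to 29.3 CPM in the inputs.

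Of the 8 spindle genes tested 1 was higher and 1 was lower. TPX2 activates AURKA and nucleates spindle microtubules (chromosome 20, 31739290 to 31801800). It ranged from 287 to 367 CPM with sgRNA and was 150, 302 and 214 CPM in the inputs, so input replicate 2 overlapped the sgRNA range. On the log2 scale the difference was 0.50 (SE 0.16, adjusted p = 0.0206). TPX2 lost its call without ACTB replicate 1, input replicate 1 or input replicate 3 (adjusted p = 0.0534, 0.163 and 0.0747) and by DESeq2 (0.0613). Its call was also lost by edgeR at a mean of at least 10 CPM (adjusted p = 0.0612) and with the FHY1-M3 libraries thinned (0.152). ASPM, which holds microtubule minus ends at the spindle poles (chromosome 1, 197084127 to 197146669), was at 164 and 190 CPM for the ACTB guide, 122 and 134 for the con guide, 173 and 169 for the non-target guide, and 272, 247 and 235 CPM in the inputs. Each input was above each sgRNA library, and the log2 difference was -0.68 (SE 0.15, adjusted p = 0.00138).

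Motor genes of the spindle did not pass. KIFC1, a minus-end directed kinesin, was the highest of them at 0.64, with 77.6 to 106 CPM in the sgRNA libraries and 36.6 to 71.5 CPM in the inputs, and these did not overlap. KIF11, which pushes the poles apart, was at 0.44, KIF4A, a chromosome-bound kinesin, at -0.10 and KIF2C, a microtubule depolymerase, at -0.21. KIF4B, a near-identical copy of KIF4A, had 0 to 2 counts. HMMR, a spindle pole protein, was at -0.01. TOP2A, the topoisomerase that untangles sister chromatids, varied least over the sgRNA libraries, at 551 to 658 CPM with sgRNA and 580 to 691 CPM in the inputs (log2 difference -0.05).

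Cytokinesis had no call among 4 tested genes, with 1 at an unadjusted p under 0.05 and none past 0.05 by DESeq2. ANLN, the anillin scaffold of the contractile ring, was at 205 to 265 CPM with sgRNA and 150, 192 and 199 CPM in the inputs, without overlap, and its log2 difference was 0.35. KIF20A and PRC1, a kinesin and a microtubule bundler of the central spindle, had log2 differences of -0.05 and -1.02. CDC23, an anaphase-promoting complex gene that overlaps KIF20A, had a log2 difference of 0.09 (SE 0.20, adjusted p = 0.804). The part of CDC23 in the KIF20A value was not tested. PRC1 had an SE of 0.61, the largest among the members, at levels of 6.76 to 16.7 CPM with sgRNA and 11.6 to 26.0 CPM in the inputs. ECT2, which activates RhoA at the division plane, was at -0.37 with inputs from 69.9 to 170 CPM, and ECT2 passed without input replicate 2 (-0.71, adjusted p = 0.0294).

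The spread of the members was larger among the inputs. Across the 6 sgRNA libraries the coefficient of variation had a median of 15.3%, from 6.32% for TOP2A to 41.1% for CENPA, and 27 of the 38 members were under 20%. Across the 3 inputs the median was 24.8%, from 7.41% for ASPM to 69.5% for CENPA, and 14 were under 20%. The 26 members that did not pass had log2 differences of -1.02 to 0.64, 8 above and 18 below 0, and 5 of them had groups that did not overlap. The 95% intervals of the 38 members spanned 0.40 to 2.46 on the log2 scale, with a median span of 0.93.

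Promoters of members with different behaviour were read to show what the list shares beyond its rule. The 250 bases upstream of the annotated start (RefSeq, GRCh38.p14) were present for 34 of the 40 members, and AURKA, BUB3, TTK, TPX2, BIRC5 and UBE2C had no entry. Printed are ESPL1 and UBE2S, which were higher, ASPM, which was lower, and CCNB2, a cyclin that did not pass and has a dense set of elements. Sequences run 5′ to 3′ on the gene's strand, and capitals mark CHR elements (TTTGAA or TTCGAA, or their reverse complements) and NF-Y boxes (CCAAT, or ATTGG on the other strand).
ESPL1, chr12:53268049-53268298, plus strand: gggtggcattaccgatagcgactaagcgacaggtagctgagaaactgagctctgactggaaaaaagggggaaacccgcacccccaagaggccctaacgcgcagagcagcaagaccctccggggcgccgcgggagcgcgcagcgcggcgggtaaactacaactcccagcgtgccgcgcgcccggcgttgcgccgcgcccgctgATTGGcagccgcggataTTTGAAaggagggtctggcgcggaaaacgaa
UBE2S, chr19:55407789-55408038, minus strand: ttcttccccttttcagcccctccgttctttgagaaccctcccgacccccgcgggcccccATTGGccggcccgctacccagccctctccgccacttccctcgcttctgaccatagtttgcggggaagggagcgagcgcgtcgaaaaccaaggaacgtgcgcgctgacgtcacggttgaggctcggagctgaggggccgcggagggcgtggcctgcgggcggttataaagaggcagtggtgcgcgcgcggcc
ASPM, chr1:197146670-197146919, minus strand: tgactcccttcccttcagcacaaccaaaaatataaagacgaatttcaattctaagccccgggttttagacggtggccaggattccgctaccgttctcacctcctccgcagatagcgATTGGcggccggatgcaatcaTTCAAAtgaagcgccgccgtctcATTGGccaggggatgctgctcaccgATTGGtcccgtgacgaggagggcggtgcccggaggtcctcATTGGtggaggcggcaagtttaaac
CCNB2, chr15:59104896-59105145, plus strand: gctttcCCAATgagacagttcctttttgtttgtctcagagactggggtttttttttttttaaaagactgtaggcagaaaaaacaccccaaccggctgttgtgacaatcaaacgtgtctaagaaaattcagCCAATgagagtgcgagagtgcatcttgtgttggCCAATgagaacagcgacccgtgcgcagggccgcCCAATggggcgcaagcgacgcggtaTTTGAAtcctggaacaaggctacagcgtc

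In ESPL1 a CHR element at 31 bases before the start followed an NF-Y box at 48 bases. CCNB2 had its CHR element at 29 bases and 4 NF-Y boxes, of which 3 lay at 54, 87 and 120 bases. ASPM had 4 NF-Y boxes and a CHR element at 113 bases, and UBE2S held an NF-Y box at 191 bases and no CHR match in this window.

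Over the 34 members 19 had a CHR element (55.9%), against 15.5% of the 14908 genes of the count table with a promoter entry. NF-Y boxes stood in 28 (82.4%, against 40.4%), and at least 2 of them in 17 (50%, against 13.6%). Both elements occurred together in 17 (50%, against 6.0%). A gene with several annotated starts counts if any of its windows holds the element. These counts describe letters in a window and not binding, and the members were listed as mitotic genes.

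The elements were also counted by each member's difference from input, with no test. A CHR element was found in 1 of 5 members that were higher, 2 of 4 that were lower and 15 of 23 that did not pass, counting those with a promoter entry. Only the spellings TTTGAA and TTCGAA were searched, so a window without a match may hold another form of the element. The NF-Y box was found in 5 of 5, 4 of 4 and 17 of 23. Of the 27 CHR matches in member windows 19 (70.4%) began within 70 bases of the start, against 19.2% of the 2837 matches in windows of genes in the count table.

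**Figure D3:**
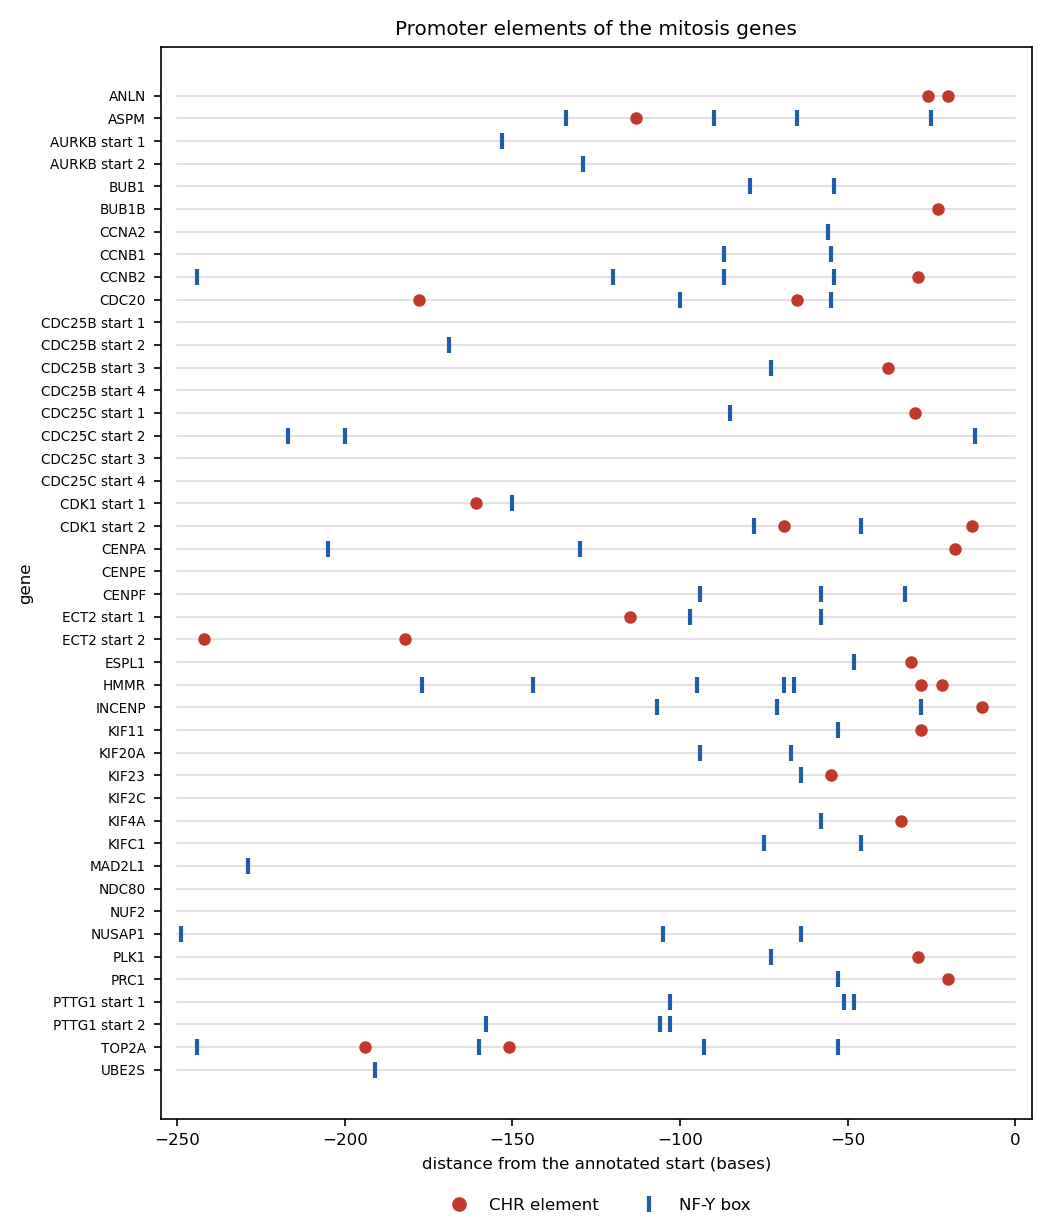
Positions of CHR elements (red dots) and NF-Y boxes (blue bars) in the 250 bases before each annotated start of the 34 members with an entry, with distance from the start in bases on the x axis. CHR elements gather near the start, 19 of 27 within 70 bases.

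Each guide was also set against the same 3 inputs, so the 3 sets of values are not independent and are given side by side. For the ACTB guide 2 members were higher and 2 lower (background 7.05% and 3.97% of all genes), for the con guide 2 and 3 (7.22% and 4.22%), and for the non-target guide 5 and 2 (8.1% and 4.57%). UBE2S was higher and TTK lower in every one. The log2 differences of UBE2S were 1.25, 0.83 and 0.71 for ACTB, con and non-target, and those of TTK were -1.70, -1.53 and -1.99.

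Other members passed with some guides only, which does not show a difference between guides. ESPL1 passed with the ACTB and non-target sgRNA, with log2 differences of 0.87, 0.74 and 0.98 over the 3 guides in the same order. UBE2C passed with ACTB and con (-0.90, -1.01 and -0.74), CCNA2 with con and non-target (0.41, 0.81 and 1.06), and ASPM with con (-0.51, -0.97 and -0.55). CENPF, TPX2 and PTTG1 passed for the non-target guide. With a library left out, no member was lower for ACTB without either ACTB replicate, nor for non-target without its replicate 2, and 1 was higher for non-target without its replicate 1. For con, 1 member was higher without any single sgRNA library or input replicate 1, and 1 was lower without either con replicate. For ACTB, 1 was higher without ACTB replicate 2, input replicate 1 or non-target replicate 1, and 1 was lower without either con replicate. For non-target, 3 were higher without its replicate 2, and 1 was lower without its replicate 1, ACTB replicate 2, either con replicate or input replicate 2.

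The guides were then compared with each other among the 6 sgRNA libraries, in a fit of 12808 genes. Between the ACTB and non-target sgRNA 32 genes passed (0.25%), 1 of the 38 members among them, UBE2S. Its 2 ACTB libraries (371 and 424 CPM, mean 398 ± 37.8, SD, n = 2) were above its 2 non-target libraries (300 and 246 CPM, mean 273 ± 38.4, SD, n = 2). The log2 difference was 0.54 (SE 0.12, 95% interval 0.29 to 0.79, edgeR adjusted p = 0.0335), a fold of 1.46. RPL28, which overlaps it, differed by 0.00 between these guides (SE 0.10), and whether shared reads entered the UBE2S difference was not tested.

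That call rests on few libraries. The adjusted p of UBE2S was 0.66 without ACTB sgRNA replicate 2, 0.0857 without ACTB sgRNA replicate 1 and 0.281 without non-target sgRNA replicate 2. It was 0.0963 with only the 2 groups compared in the fit and 1 with all 9 libraries in it, and by DESeq2 it was 0.00406.

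With all 6 libraries the other members did not pass between the ACTB and non-target sgRNA, and 4 of the 38 had an unadjusted p under 0.05, UBE2S included (10.5%, against 7.82% of all genes). CCNA2 was at 100 and 123 against 161 and 189 CPM, without overlap, and its log2 difference was -0.65 (SE 0.18, edgeR adjusted p = 0.239). By DESeq2 CCNA2 had an adjusted p of 0.0395. CENPF had a log2 difference of -0.31 (SE 0.10, edgeR adjusted p = 0.339) and CDC25C of -0.80 (SE 0.39, edgeR adjusted p = 0.622), from 24.3 and 27.2 against 50.5 and 39.3 CPM. CENPF passed without non-target replicate 2 (-0.48, edgeR adjusted p = 0.0493), and without non-target replicate 1 its log2 difference was -0.13.

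Between the ACTB and con sgRNA 4 genes passed (0.0312%), no member by edgeR or DESeq2, and 3 members had an unadjusted p under 0.05 (7.89%, against 3.86%). They were UBE2S, ASPM and CCNA2, with log2 differences of 0.42, 0.47 and -0.40 (edgeR adjusted p = 1 for each). Between the con and non-target sgRNA 22 genes passed (0.172%), again no member by either tool, and 3 members had an unadjusted p under 0.05 (7.89%, against 5.25%). CENPF was at -0.28, AURKB at -0.57 and ASPM at -0.42 (edgeR adjusted p = 0.787, 0.789 and 0.821). These guide comparisons share libraries and are not independent of each other.

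**Figure D4:**
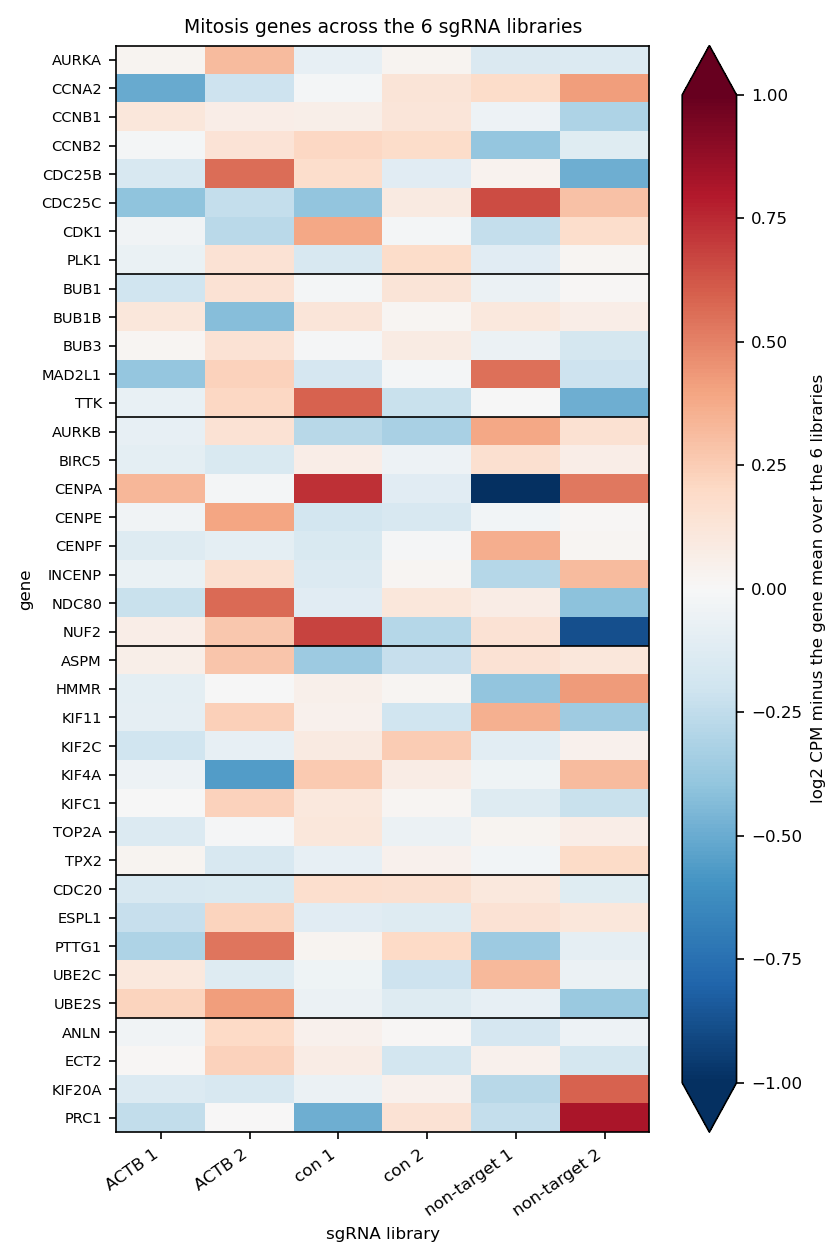
Log2 CPM of each member in each of the 6 sgRNA libraries minus its mean over the 6, by role (black lines), with red for higher and blue for lower. ACTB sgRNA replicate 2 was the highest library for 13 of 38 members and ACTB sgRNA replicate 1 for 0, and the replicates of a guide often differ in color. The same count over all genes was not made.

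The heat map also shows how replicates of a guide differed. ACTB sgRNA replicate 2 was the highest of the 6 sgRNA libraries for 13 members and replicate 1 for 0, and the members took 0.558% and 0.505% of their counts, the extremes of the 6. The same count over all genes was not made, so this split is not known to be particular to the members.

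Other genes of the cell cycle were read from lists of the same kind, each compared with input. Over all genes tested 11.4% were higher and 8.6% lower, the shares to set beside the count of every list. Condensin and cohesin, the rings that compact chromosomes and hold sisters together, had 9 of 19 genes higher and 0 lower, with a median log2 difference of 0.26. With the FHY1-M3 libraries thinned to the mean input total 5 were higher. None of the 19 was lower by DESeq2 or at an unadjusted p under 0.05. WAPL, which releases cohesin, was at 237 ± 25.7 against 98.0 ± 24.8 CPM (log2 difference 1.25, SE 0.18, adjusted p = 3.97e-06). SMC4, a condensin subunit, was at 410 ± 26.8 against 224 ± 22.1 CPM (0.88, SE 0.13, adjusted p = 4.73e-06).

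The 25 further kinetochore genes had 2 higher and 3 lower, with a median of 0.34. These counts were close to the shares over all genes (11.4% and 8.6%). MIS12, of the outer kinetochore, and CENPB, which binds centromeric DNA, were higher by 1.43 and 0.83 on the log2 scale. KNTC1, of the checkpoint's RZZ complex, was at -0.90, and CENPK, of the inner kinetochore, at -1.38. The anaphase-promoting complex had 1 higher and 0 lower of 16, with 4 lower at an unadjusted p under 0.05 and 3 lower by DESeq2. It had 1 lower without input replicate 1 or without input replicate 2. The higher gene was FZR1, the activator used after mitosis, at 100 ± 8.95 against 24.4 ± 18.6 CPM (log2 difference 1.90, SE 0.33, adjusted p = 5.88e-05).

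Among the DREAM, MYB and E2F regulators 6 of 19 were higher and 2 lower (11.4% and 8.6% over all genes), with a median of 0.23. The lower count was 4 by DESeq2, and it was 1 without ACTB replicate 2, con replicate 1, input replicate 2 or non-target replicate 1. MYBL2, the activator of mitotic promoters, was higher by 0.68 (SE 0.12, adjusted p = 3.97e-05) and TFDP1, an E2F partner, by 1.03. RBBP4, a histone-binding MuvB subunit, was at -0.67 and RBL2, the p130 pocket protein, at -0.75. Of 16 G1 and S phase cyclins, CDKs and inhibitors 1 was higher and 3 lower, with a median of 0.31, and 2 were higher without input replicate 2 or 3. CDC25A, the G1/S phosphatase, was at 1.06, CCND2, cyclin D2, at -0.73 and CDK6, its kinase, at -0.91. The median was above 0 in these lists and in the anaphase-promoting complex (0.12) and below 0 in the mitosis genes (-0.11). No test of the difference between lists was made.

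**Figure D5:**
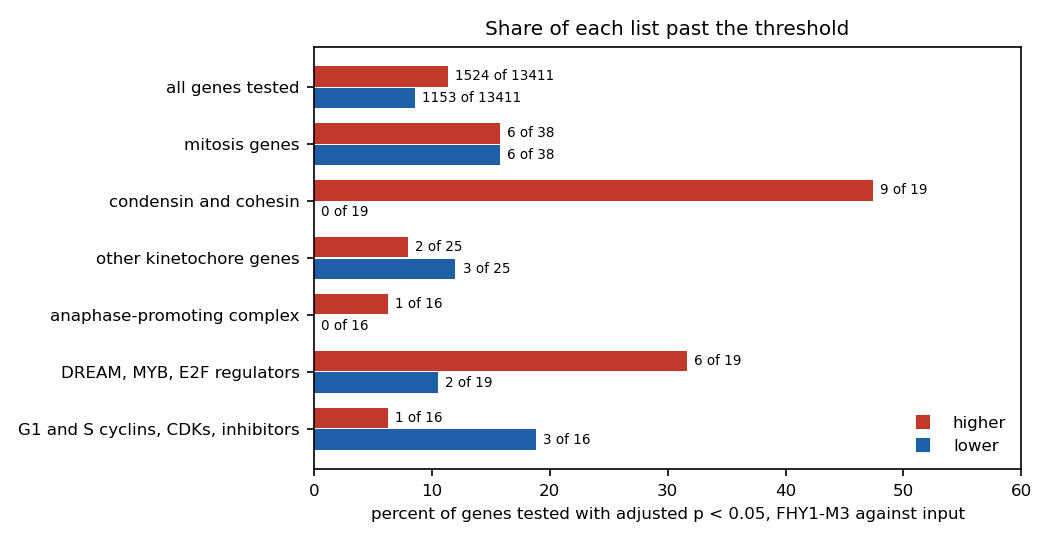
Percent of the genes tested in each list that were higher (red) or lower (blue) in the FHY1-M3 libraries than in the inputs at an adjusted p under 0.05, with the number of genes beside each bar. The mitosis genes had 6 of 38 in each direction, condensin and cohesin had 9 of 19 higher and 0 lower, and all genes tested had 11.4% and 8.6%.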

How the data were processed

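The authors deposited a single table of raw read counts for each gene symbol in all 9 libraries, with no normalization visible in the values. Per the submitters' processing notes, cutadapt 4.3, STAR 2.7.10b, deepTools and hg38 were used, with no roles given. How reads were counted, with which strand setting and annotation, is not given in the sources used here. Of counts from 1 to 20, 88.5% to 95.0% per library were even, so both mates of a pair appear to have been counted. Replicates differed by more than sampling noise (chi-square per degree of freedom 1.81 to 5.12).

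Counts were fitted with edgeR 4.0.16 in R 4.3.3 (filterByExpr by group with a minimum count of 10, TMM, quasi-likelihood F test). All 9 libraries shared the fit for comparisons with input, taking FHY1-M3 as the mean of the 3 guides, and the 6 sgRNA libraries shared the fit between guides. The SE was taken from the log2 difference and its F statistic. Levels are CPM on TMM-scaled totals of the 9-library fit. The fits were also run on simulated counts drawn from the same mean profile for all libraries, and no result here rests on that run. Alternatives covered scaling, filters, DESeq2 1.42.0, a replicate block, left-out libraries, halved counts, thinning, the libraries in the fit, and removal of mitochondrial and histone genes.

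Members and lists were chosen with earlier results of these data known. Named with full values were up to 6 members per direction with the largest log2 difference from input among those past 0.05 with a mean of at least 5 CPM, those past it between guides, up to 3 further per guide comparison with the smallest p, and up to 2 genes per direction of other lists. Of the symbols, 19310 of 19969 matched the RefSeq gene table.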

Additional observations from a re-analysis of the deposited data

Results flagged for a closer look

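Over the 6 sgRNA libraries, which span 3 guides, a library far from the others was found for 6 of 38 members by Dixon's test. Its nominal rate of about 1 in 20 holds for values drawn from a single normal distribution. The share over all genes was not computed, so no excess among the members is shown. AURKA was at 123 CPM in ACTB sgRNA replicate 2, with the nearest library at 101 CPM. In the same library BUB1B was low at 67.4 CPM (nearest 91.6) and CENPE was high at 176 CPM (nearest 136). CENPF was at 659 CPM in non-target sgRNA replicate 1 (nearest 518). Non-target sgRNA replicate 2 was high for KIF20A at 97.4 CPM (nearest 66.6) and for PRC1 at 16.7 CPM (nearest 10.5).

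UBE2S differed by 0.543 on the log2 scale between the ACTB and non-target sgRNA libraries, past the edgeR threshold, with 2 of 2 ACTB libraries above both non-target libraries. The call was lost in 5 of 16 alternatives, with an adjusted p of 1 with all 9 libraries in the fit, 0.0963 with only the 2 groups compared, and 0.66, 0.0857 and 0.281 without ACTB replicate 2, ACTB replicate 1 and non-target replicate 2.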

How the results depend on the processing

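Against input, TTK, ASPM, UBE2C and UBE2S kept their call and direction in all 18 alternatives, and the other 8 called members kept their direction and lost the call in at least 1. BUB1 kept its call in 3, CDK1 and TPX2 in 12, MAD2L1 and PTTG1 in 13, CCNA2 in 15, CENPF in 16 and ESPL1 in 17. Thinning the sgRNA libraries to 462026 counts left 970 genes and 1 member higher. Leaving out each library in turn gave 3 to 6 members higher and 3 to 7 lower.

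No pairing by replicate number was seen, as same-numbered deviations from the group means correlated at -0.01 to 0.02. The 2 deviations within a guide mirror each other, so this check is limited and does not show that the libraries were unpaired. Only the inputs had a replicate 3. In a fit with the replicate block that library took a term of its own and did not inform the comparison with input. With the replicate block 6 members were higher and 7 lower against input (1368 and 941 genes). With that block KIF11 (0.65, adjusted p = 0.0355) and CENPE (-0.59, adjusted p = 0.0294) passed and BUB1 did not (adjusted p = 0.109), and 2 G1 and S phase genes were higher. With it, between ACTB and non-target 31 genes and 1 member passed.

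Members that did not pass and changed sign were AURKB (0.044 with the replicate block), CENPA (-0.29 with that block, -0.25 thinned), BIRC5 (-0.047 by DESeq2, -0.053 at a mean of at least 10 CPM, -0.052 by median ratios, -0.12 thinned), HMMR (0.045 on library totals, 0.011 without a filter, 0.026 thinned) and KIF20A (0.0069 on library totals). Left-out libraries gave ranges of -0.26 to 0.034 for AURKB, -0.10 to 0.11 for BIRC5, -0.32 to 0.17 for BUB1B, -0.27 to 0.067 for CCNB1, -0.60 to 0.11 for CDC25C, -0.34 to 0.78 for CENPA, -0.43 to 0.38 for HMMR, -0.21 to 0.18 for KIF20A, -0.32 to 0.083 for PLK1 and -0.11 to 0.018 for TOP2A.

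For each guide against input, with only the 2 groups compared, 336, 413 and 369 genes were higher with ACTB, con and non-target, with 1, 1 and 0 members higher and, for non-target, 1 lower. By DESeq2 930, 943 and 1065 genes were lower, with 4, 5 and 4 members lower, and 1 member was higher with ACTB and with con. Left-out libraries gave 419 to 1042, 398 to 1065 and 479 to 1148 genes higher and 211 to 552, 203 to 605 and 256 to 674 lower. They gave 1 to 3, 1 to 3 and 1 to 6 members higher and 0 to 2, 1 to 3 and 0 to 3 lower.

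Between ACTB and non-target 16 genes and 0 members passed with all 9 libraries in the fit, 74 and 2 by DESeq2, 21 genes at a mean of at least 10 CPM and 0 members with only the 2 groups compared. Left-out libraries gave 18 to 35 genes and 0 to 1 member. Between ACTB and con 0 genes passed with all 9 libraries, 7 without a filter, 2 with only the 2 groups, 2 without mitochondrial and histone genes and 0 to 3 with a library left out. Between con and non-target 38 passed by DESeq2, 12 at a mean of at least 10 CPM and 10 to 27 with a library left out. The cause of these changes was not tested, beyond fewer counts when thinned and fewer libraries when some were left out. With the replicate block, input replicate 3 also did not inform the comparison with input. The inputs' depth limits the comparison with input, and members at low counts, such as CENPA and PRC1, have the widest intervals.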
